A study of Mus musculus with 6 samples.

Results

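The genes described here are the nuclear genes of the mitochondrial respiratory chain in mouse kidney, taken as every protein-coding row of the count table whose GENCODE M21 symbol begins with Nduf (complex I), Sdh (complex II), Uqcr (complex III), Cox followed by a digit (complex IV) or Atp5 (complex V). There were 107 such rows among 55450, with 106 distinct symbols, because Atp5o has 2 identifiers. By role they comprised 36 subunits of complex I, 4 of complex II, 8 of complex III, 17 of complex IV and 17 of complex V, 21 assembly factors, and 4 associated genes (Ndufa4, Ndufa4l2, Cox7a2l and Atp5s) that are kept apart from the classes. The kidneys came from male wild-type C57BL/6J mice, purchased at 7 weeks of age and acclimated for 1 week. The 3 mice of the day-21 group were gavaged once a day with 0.16 g/kg adenine mixed with 2.4 g/kg potassium oxonate, a model of hyperuricemia-related chronic kidney disease. The 3 mice of the day-0 group were the controls, labelled 20%PEG, and how long they received it is not given in the sources used here. Time and treatment therefore cannot be told apart, and whole kidney mixes many cell types.

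The respiratory chain lies in the inner mitochondrial membrane. Complexes I and II pass electrons from NADH and succinate to ubiquinone, complex III passes them on to cytochrome c, complex IV reduces oxygen, and complex V makes ATP from the resulting proton gradient. Complexes I, III, IV and V mix nuclear subunits with a few encoded in mitochondrial DNA, complex II is nuclear throughout, and assembly factors help to build the complexes without staying in them. Tubules of the kidney, above all the proximal tubule, carry many mitochondria because reabsorption is driven by ATP.

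Promoters of such genes are known to hold elements for NRF1, for ETS factors such as GABPA, for YY1 and for the estrogen-related receptors (ERR). RefSeq promoter windows (GRCm38.p6, 250 bases before to 50 after a start) were at hand for 87 of the 107 members and for 27025 genes in all. The letters GCATGCGC (NRF1), on either strand, were present in 12 of the 87 members (13.8%) and in 3.05% of all genes. CCGGAAG (ETS) was present in 26 members (29.9%) and 9.93% of all genes, AAGATGGCG (YY1) in 9 members (10.3%) and 1.64%, and TCAAGGTCA (ERR) in 2 members (2.30%) and 0.466%. The ETS letters were found in 10 of 18 assembly factors and in 4 of 32 complex I subunits. The YY1 letters were found in 5 of those 32, in 2 of 14 complex V subunits and in 2 of 18 assembly factors. They were found in 0 of 20 windowed subunits of complexes II, III and IV, which is near the 1.64% of all genes. Among subunits with a window, the NRF1 letters were found in 16.3% of the 43 called lower and in 14.3% of the 21 tested and not called. These 2 shares were 27.9% and 19.0% for ETS, 6.98% and 19.0% for YY1, and 4.65% and 0% for ERR, and their differences were not tested. A match describes the letters of the window only. The following stretches lie upstream of a start and outside annotated exons, and each is from the member of its class with the largest fall among those called lower in which such a stretch holds a match. They show what the shared elements look like in genes that fell. Capitals mark the match, which in Sdhd and Atp5g3 is read on the opposite strand, and in Cox6a1 and Ndufaf4 the NRF1 letters read on both strands overlap. The stretches are Ndufa6 of complex I (chr15:82354323-82354541, minus strand, NRF1), Sdhd of complex II (chr9:50603850-50603909, minus strand, ETS), Uqcr11 of complex III (chr10:80406831-80407071, minus strand, ETS), Cox6a1 of complex IV (chr5:115348982-115349129, minus strand, NRF1), Atp5g3 of complex V (chr2:73911327-73911576, minus strand, ERR) and the assembly factor Ndufaf4 (chr4:24897833-24898082, plus strand, NRF1).
Ndufa6: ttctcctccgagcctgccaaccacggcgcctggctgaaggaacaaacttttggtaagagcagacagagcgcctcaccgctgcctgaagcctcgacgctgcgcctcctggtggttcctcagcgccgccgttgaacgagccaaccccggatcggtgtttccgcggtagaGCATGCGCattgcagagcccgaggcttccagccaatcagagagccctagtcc
Sdhd: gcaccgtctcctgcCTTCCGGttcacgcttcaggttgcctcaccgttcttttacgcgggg
Uqcr11: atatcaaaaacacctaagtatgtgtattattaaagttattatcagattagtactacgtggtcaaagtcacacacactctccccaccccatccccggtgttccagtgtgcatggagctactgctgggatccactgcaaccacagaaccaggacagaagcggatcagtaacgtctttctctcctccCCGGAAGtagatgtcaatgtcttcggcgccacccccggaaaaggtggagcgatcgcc
Cox6a1: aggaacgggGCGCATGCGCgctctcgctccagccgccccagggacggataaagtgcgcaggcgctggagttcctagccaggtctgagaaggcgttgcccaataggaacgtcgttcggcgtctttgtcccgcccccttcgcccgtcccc
Atp5g3: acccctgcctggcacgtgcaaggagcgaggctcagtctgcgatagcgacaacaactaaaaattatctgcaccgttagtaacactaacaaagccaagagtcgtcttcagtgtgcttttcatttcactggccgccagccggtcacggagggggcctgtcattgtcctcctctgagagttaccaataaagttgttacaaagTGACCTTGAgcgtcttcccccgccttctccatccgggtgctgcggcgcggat
Ndufaf4: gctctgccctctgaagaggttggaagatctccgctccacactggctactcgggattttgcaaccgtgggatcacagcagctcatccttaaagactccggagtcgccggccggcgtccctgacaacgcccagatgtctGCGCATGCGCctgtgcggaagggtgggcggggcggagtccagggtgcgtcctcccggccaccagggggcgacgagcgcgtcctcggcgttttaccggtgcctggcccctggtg

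The 6 libraries held 10963849 to 14333311 counts. Transcripts encoded in mitochondrial DNA took 9.39% to 9.86% of all counts on day 0 and 3.82% to 4.42% on day 21, and the 20 highest genes took 16.8% to 17.5% and 11.7% to 13.1%. Levels are given as normalized CPM (counts of a gene relative to a library size scaled by TMM), with single mice in the order of replicates 1, 2 and 3. A member was called lower or higher when its adjusted p was below 0.05 and its fold exceeded 1.5, by the quasi-likelihood test of edgeR with p-values adjusted after Benjamini and Hochberg across 16592 genes. With TMM the change of the median gene was 0.03 on the log2 scale, and with library size alone it was 0.42, a shift of 0.39 that turns the split of all calls from 3249 higher and 2572 lower into 5985 higher and 1338 lower. Changes are therefore also given relative to the median of all genes.

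The nuclear respiratory chain was lower on day 21. Of the 101 members that passed the filter on low counts, 55 were called lower against a background of 15.5% of all genes tested, and 1, Ndufa4l2, was called higher against a background of 19.6%. The median log2 fold change of the 101 members was -0.66, which is 63.4% of the day-0 level and 0.69 below the median of all genes. At any fold, 77 were lower (background 21.7%) and 1 higher (background 23.9%), and in 81 all 3 day-21 mice were below all 3 day-0 mice (background 26.4%), while 4 showed the opposite order (background 30.7%). At an adjusted p below 0.01 and a fold above 2, 10 were lower (background 7.56%) and 0 higher (background 11.6%), and with upper-quartile scaling 42 were lower (background 13.1%). With library size alone, 11 members were called lower (background 8.06%) and 3 higher (background 36.1%), with a median of -0.26, which is 0.68 below the median of all genes on that scale. The members summed to 2.10%, 2.26% and 1.89% of all counts in the day-0 mice and to 1.42%, 1.54% and 1.52% in the day-21 mice, a share that no scaling between libraries changes and in which the groups did not overlap. In whole kidney, fewer cells of a type and less RNA per cell cannot be told apart.

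Markers of kidney cell types moved with these falls. All 16 proximal tubule markers were called lower, with a summed level of 33776 to 48963 CPM on day 0 and 6722 to 9439 CPM on day 21, and of 8 markers of the thick ascending limb and distal tubule 5 were lower and 1 higher (6957 to 8193 CPM, then 4185 to 4825 CPM). All 10 macrophage markers (176 to 225 CPM, then 1036 to 1373 CPM), all 7 T cell markers (4.81 to 11.1 CPM, then 31.4 to 36.6 CPM) and all 7 fibroblast markers (158 to 303 CPM, then 1056 to 2067 CPM) were higher. Over all genes tested, 15.5% were called lower and 19.6% higher. No marker in these 5 lists was at 0 in all mice. The median log2 fold change was -2.02 over the proximal tubule markers, further from 0 than the fall of any member. The part of these lists in the result was not tested.

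**Figure D1:**
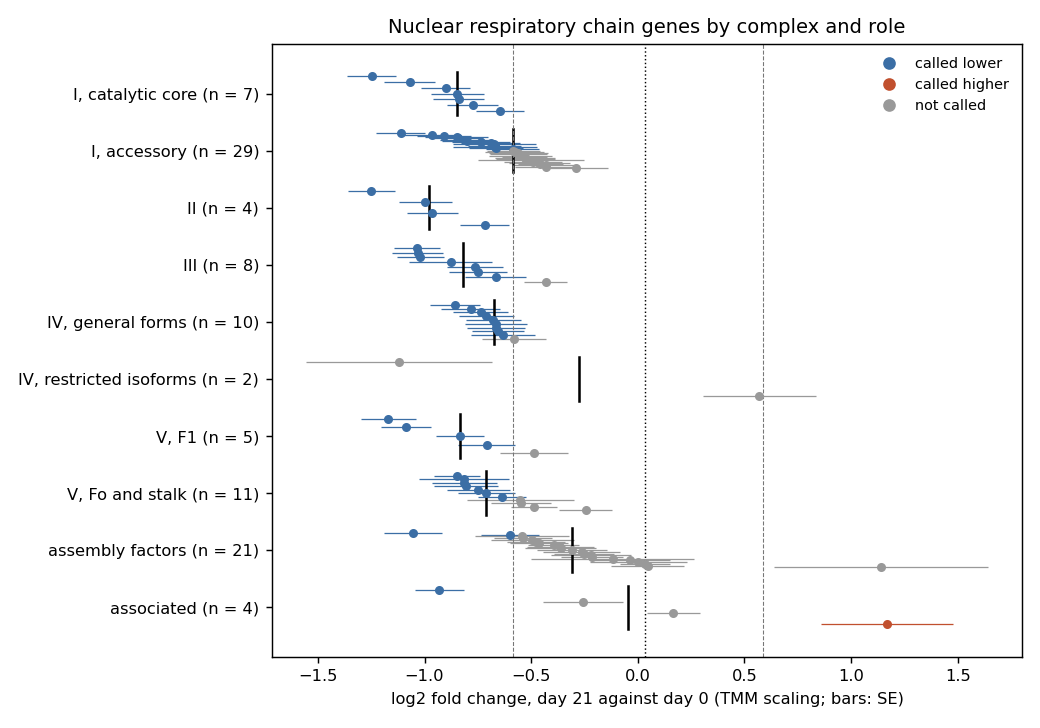
The log2 fold change on day 21 against day 0 (horizontal axis, TMM scaling) of the 101 tested members by complex and role, with bars for the SE, a black line for the median of each class, a dotted line for the median of all genes (0.03) and dashed lines for a fold of 1.5. The subunit classes of complexes I, II, III and V lie left of the dotted line, as do the general forms of complex IV, whereas assembly factors have a median of -0.31 that turns to 0.08 with library size alone.

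The nuclear core subunits of complex I bind NADH, flavin and iron-sulfur clusters in the matrix arm. All 7 of these were called lower, with a median log2 fold change of -0.85. Ndufs1 (chr1:63143596-63176833, GRCm38, 19 exons), which carries iron-sulfur clusters next to the flavin site, was at 345, 323 and 332 CPM on day 0 and at 146, 124 and 151 CPM on day 21. Its fold change of -1.25 (log2, SE 0.11, edgeR adjusted p = 1.6e-05) left 42.1% of the day-0 level, and the groups were far apart. Ndufv1, the subunit that binds NADH and flavin, was at 288, 345 and 278 CPM and then at 145, 137 and 151 CPM (log2 fold change -1.07, SE 0.12, edgeR adjusted p = 5.3e-05). These 2 also fell when libraries were scaled by size alone, at -0.86 and -0.68.

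Other core subunits fell less steeply, again without overlap between the groups. Ndufs8 and Ndufs7, which hold the last clusters before ubiquinone, fell by 0.85 and 0.84 on the log2 scale, from 160.3 ± 21.9 CPM (SD, n = 3) to 89.1 ± 6.19 CPM and from 138 ± 18.1 CPM to 77.3 ± 3.39 CPM. Ndufs3 of the same arm fell by 0.77, from 159 ± 18.9 CPM to 92.9 ± 6.66 CPM, and 39.7% of the 50-base words of its transcript occur in other annotated genes, so part of its count is uncertain. Ndufv2 changed least of the 7, from 189, 204 and 167 CPM to 114, 125 and 119 CPM (-0.65, SE 0.11, edgeR adjusted p = 0.0010). In each of these 4 the highest day-21 mouse lay below the lowest day-0 mouse, and none of the 4 was called with library size alone.

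Accessory subunits surround that core. Of 29 tested, 14 were called lower, with a median of -0.58. The dividing fold of 1.5 runs through the middle of this class, because at any fold 34 of all 36 complex I subunits were lower and the day-21 mice lay below the day-0 mice in 35. Ndufa10 of the membrane arm changed most, from 245, 309 and 275 CPM to 127, 131 and 125 CPM (-1.11, SE 0.12, edgeR adjusted p = 3.7e-05), and was the accessory subunit still called with library size alone. Ndufa7 of the matrix arm was the exception to the separation, at 73.4, 86.8 and 59.3 CPM and then 56.7, 66.6 and 56.5 CPM, where the groups overlap (-0.29, SE 0.15, edgeR adjusted p = 0.13) and the sign turns to 0.11 with library size alone. Ndufb6 had the next smallest change, -0.43 (SE 0.15, edgeR adjusted p = 0.036). Of its exon bases 39.0% are shared with a gene on the other strand, and 34.1% of its words occur in other annotated genes, so its level is uncertain. By position, 10 of 16 matrix-arm and 10 of 19 membrane-arm subunits were called lower, with medians of -0.70 and -0.59. Within each mouse the summed CPM of the core relative to the accessory subunits was 0.588, 0.551 and 0.614 on day 0 and 0.513, 0.456 and 0.509 on day 21, a ratio that scaling does not change and in which the groups did not overlap.

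Complex II, which also serves the citric acid cycle, had the lowest median, -0.98, and all 4 of its subunits were called lower. Sdha (chr13:74322254-74350280, GRCm38, 15 exons), the flavoprotein that oxidizes succinate, was at 1066, 1056 and 989 CPM on day 0 and at 454, 402 and 453 CPM on day 21. The log2 fold change of -1.25 (SE 0.11, edgeR adjusted p = 1.4e-05, 95% confidence interval -1.50 to -1.003) was the largest fall of any member, level with that of Ndufs1 within the errors. Sdhb, the iron-sulfur subunit, was at 342, 402 and 301 CPM and then at 180.3, 169.7 and 174 CPM (-0.996, SE 0.13). The membrane anchors were called lower too. Sdhc fell by 0.96 (SE 0.12), from 394 ± 51.2 CPM (SD, n = 3) to 202 ± 3.63 CPM, and Sdhd by 0.72 (SE 0.11), from 338 ± 36.9 CPM to 206 ± 7.15 CPM, and the difference between these changes was not tested. Sdha and Sdhb were the 2 subunits still called lower with library size alone.

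Complex III lost transcripts across almost all of its nuclear subunits, with 7 of 8 called lower and a median of -0.82. Uqcrfs1 (chr13:30540308-30545362, GRCm38, 2 exons), the Rieske iron-sulfur protein that takes electrons from ubiquinol, was at 373, 435 and 404 CPM and then at 207, 191 and 193 CPM (-1.04, SE 0.11, edgeR adjusted p = 3.8e-05). Uqcrc1, a core protein of the matrix side, was at 585, 701 and 557 CPM and then at 307, 299.6 and 295 CPM (-1.03, SE 0.12), and both were also called with library size alone, as was Uqcrc2 (-1.02). At the other end, Uqcrh, a hinge protein for cytochrome c, fell by 0.67 (SE 0.14), and Uqcrb was at 119, 121 and 110.5 CPM and then at 82.7, 87.5 and 89.9 CPM (-0.43, SE 0.10, edgeR adjusted p = 0.0058). For Uqcrb the groups thus did not overlap although the fold stayed under 1.5, and 43.4% of its words are shared with other annotated genes.

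The general forms of complex IV, the subunits used in most tissues, fell by similar amounts. Of these 10 subunits, 9 were called lower, and all 10 changes lay between -0.86 and -0.58. With all 17 rows counted, 12 were tested, 9 were called lower and the median was -0.67. Cox7a2 (chr9:79755361-79759878, GRCm38, 4 exons) had the largest called fall, from 154, 177 and 139.9 CPM to 81.6, 87.7 and 90.2 CPM (-0.86, SE 0.12, edgeR adjusted p = 0.00022). Cox4i1, the largest nuclear subunit and a site of regulation by ATP, was at 757, 883 and 641 CPM and then at 400.5, 471 and 453 CPM (-0.78, SE 0.14). Cox5b, at 281, 327 and 223 CPM and then 164, 204 and 186 CPM, stood at the border of the fold (-0.58, SE 0.15, edgeR adjusted p = 0.0097). The count for this complex leaned on day-0 replicate 2, since without that mouse 5 subunits were called lower (14.4% of all genes). With library size alone 0 were called lower (8.06% of all genes). Day-0 replicate 2 had the highest and day-0 replicate 3 the lowest summed level in each of the 5 complexes on day 0.

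Some complex IV subunits also have isoforms restricted to muscle, lung or testis, and these were scarce in kidney. Cox7a1, the heart and muscle form, was at 6.12, 8.32 and 2.06 CPM and then at 2.05, 2.51 and 3.06 CPM, so that the groups overlapped because of day-0 replicate 3 (-1.12, SE 0.44, edgeR adjusted p = 0.058). Cox6b2, the testis form, was at 2.51, 4.12 and 3.40 CPM and then at 5.37, 4.83 and 4.78 CPM, with the groups apart (0.57, SE 0.26, edgeR adjusted p = 0.10), and it was called higher with library size alone. The other 5 were not tested. Cox4i2, a form induced in lung and by low oxygen, had 7, 8 and 1 counts and then 10, 8 and 6, and Cox6a2, a heart and muscle form, had 8, 8 and 9 counts and then 0, 4 and 3. Cox8b had 5 counts in day-0 replicate 3 and 0 elsewhere, Cox8c had 1 count in day-21 replicate 3, and Cox7b2 had 0 in every library, where 3 counts correspond to 0.179 to 0.309 CPM. Of 9 striated muscle markers 1, Acta1, was tested and called higher, their sum was 0.602 to 1.44 CPM and then 2.45 to 4.12 CPM, and Myh4 was at 0 in all mice. Of 8 fat markers 2 were tested and none was called, with sums of 35.4 to 71.9 CPM and 24.0 to 52.0 CPM. These sums were mostly Fabp4, at 42.0, 33.2 and 50.4 CPM and then at 50.2, 23.6 and 48.0 CPM. Adipoq was at 0, 1.15 and 5.26 CPM in the day-0 mice and at 0, 0 and 0.122 CPM in the day-21 mice. Day-0 replicate 3 was also the highest mouse in Plin1, Cidea and Cidec, but not in Lep. Cidec was at 0.401, 0.577 and 8.14 CPM and then at 0.919, 0.418 and 0.735 CPM. The part of either list in these values was not tested.

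Complex V has a catalytic F1 part in the matrix and a membrane part, Fo, joined by a peripheral stalk. Its 16 tested subunits had a median of -0.73, and 11 were called lower, 4 of 5 in F1 and 7 of 11 in Fo and the stalk. Atp5b (chr10:128083273-128090391, GRCm38, 10 exons), the catalytic beta subunit, was at 4027, 4306 and 3573 CPM on day 0 and at 1835, 1637 and 1819 CPM on day 21 (-1.17, SE 0.13, edgeR adjusted p = 5.1e-05). Atp5a1, the alpha subunit, was at 2863, 2903 and 2541 CPM and then at 1323, 1275 and 1313 CPM (-1.09, SE 0.12, edgeR adjusted p = 4.5e-05). Their changes differed by less than their SEs, and these 2 members of complex V were also called with library size alone. The central stalk subunits of F1 followed with smaller estimates. Atp5c1 (gamma) fell by 0.83 (SE 0.11), from 573 ± 56.7 CPM (SD, n = 3) to 322 ± 3.99 CPM, and Atp5d (delta) fell by 0.71 (SE 0.13), from 413 ± 66.4 CPM to 253 ± 18.8 CPM. Atp5e (epsilon) was at 108, 129 and 88.7 CPM and then at 65.2, 89.7 and 77.6 CPM, where the groups overlap (-0.49, SE 0.16, edgeR adjusted p = 0.030).

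In Fo, 3 genes encode the same mature c subunit of the rotor ring. Atp5g1 had a log2 fold change of -0.81 and Atp5g3 of -0.81, and both were called lower. Atp5g2 was at 115, 129.9 and 97.0 CPM and then at 92.7, 97.5 and 98.8 CPM, with overlapping groups (-0.24, SE 0.12, edgeR adjusted p = 0.13), and its sign turns to 0.15 with library size alone. The difference between the 3 genes was not tested, and they were set side by side after their values were seen. Atp5j, coupling factor 6 of the stalk, was at 185, 189.7 and 178 CPM and then at 119.7, 146 and 129 CPM (-0.49, SE 0.11, edgeR adjusted p = 0.0047), with the groups apart but under the fold of 1.5. Atp5o was tested under 1 of its identifiers (16.9 ± 5.65 CPM, then 11.6 ± 2.20 CPM, SD, n = 3, -0.55, edgeR adjusted p = 0.10), with overlapping groups and 50.3% of its words shared with other annotated genes, so its level is uncertain, while the other had 0 counts and its exons lie wholly inside those of another gene on the same strand.

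**Figure D2:**
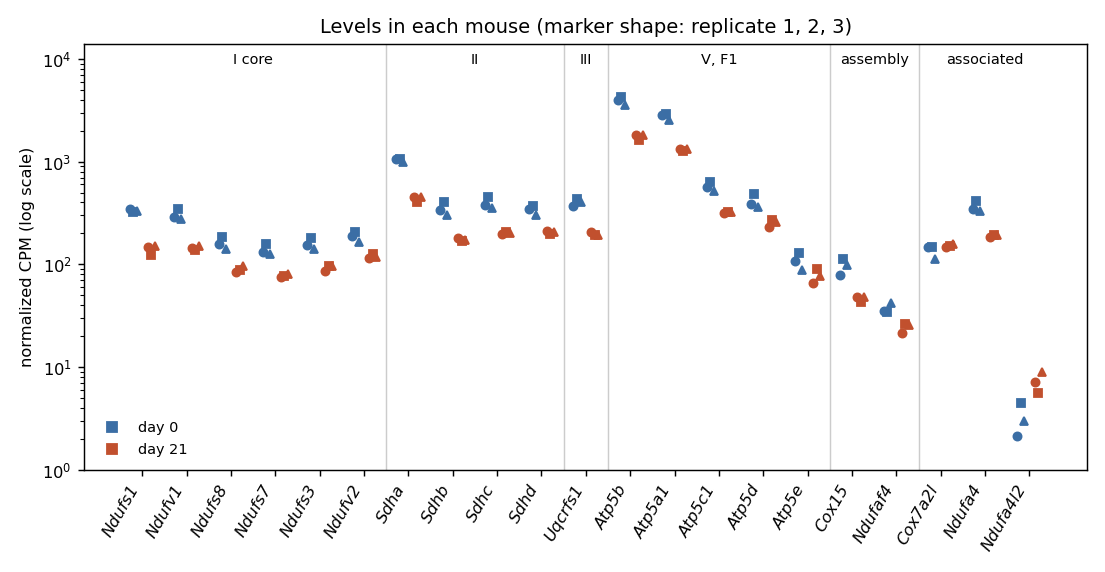
Normalized CPM (log scale) in each of the 3 day-0 and 3 day-21 mice for core subunits of complex I, the subunits of complex II, Uqcrfs1, the F1 subunits, the assembly factors called lower and 3 associated genes. The day-21 mice lie below the day-0 mice in every gene but Atp5e, which overlaps, and Cox7a2l and Ndufa4l2, which lie above.

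Per exon length of the gene, Atp5b and Cox8a were the most abundant members on day 0, at 2032 ± 149 and 1991 ± 202 TPM (SD, n = 3). TPM are counts scaled by the merged exon length of a gene and by depth. Atp5a1 followed at 1919 ± 138 TPM and Cox6a1 at 1839.8 ± 196 TPM. These 4 did not differ beyond their spread. Cox4i1 came next, well below them, at 1062 ± 132 TPM. The median member had 158 TPM, the median subunit of complex II had 442 TPM and that of complex I 166 TPM, and the median assembly factor had 20.3 TPM.

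Of 21 tested assembly factors, 2 were called lower (9.52%), beside 15.5% of all genes. With 21 genes, that share was not told apart from that of all genes. Of the 21 estimates, 17 were below 0. Their median log2 fold change was -0.31, which is 0.34 below that of all genes and turns to 0.08 with library size alone. At any fold 6 of the 21 were lower (21.7% of all genes), and in 10 the day-21 mice lay below the day-0 mice (26.4% of all genes). Both of these shares were above those of all genes, the first only slightly, and neither was tested. Cox15 (chr19:43733254-43753000, GRCm38, 9 exons), which makes the heme A of complex IV, was at 79.0, 112 and 97.7 CPM and then at 47.8, 43.3 and 48.0 CPM (-1.05, SE 0.14, edgeR adjusted p = 0.00015). It stood apart from the other complex IV factors and was called lower with library size alone as well. Ndufaf4, a complex I factor, was at 35.0, 34.0 and 41.7 CPM and then at 21.3, 26.4 and 25.4 CPM (-0.60, SE 0.14, edgeR adjusted p = 0.0051), close to the border of the fold, and the call is lost with library size alone (-0.21), with upper-quartile scaling (-0.51), with a mean of at least 50 counts (-0.57), without day-0 replicate 3 (-0.52) or without day-21 replicate 1 (-0.51). By target, 1 of 8 factors of complex I, 0 of 4 of complex II and 1 of 9 of complex IV were called.

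At the upper end of the assembly factors, Ndufaf2, a late complex I factor, was at 12.7, 12.0 and 10.1 CPM and then at 10.7, 13.4 and 11.8 CPM (0.05, SE 0.17). Of its exon bases 65.6% are shared with a gene on the other strand, so its level is uncertain. Cox16 was at 0.602, 0.495 and 0.206 CPM and then at 1.13, 1.01 and 0.796 CPM (1.14, SE 0.50, edgeR adjusted p = 0.088), with 2 to 17 counts per mouse and 88.7% of its words in another annotated gene, Gm20498, so its level is uncertain, and it was called higher with library size alone. Without day-0 replicate 1, 4 assembly factors were called lower in place of 2. Assembly factors without a complex prefix in their symbol had the same median of -0.31 but more calls, with 10 of 34 tested called lower (15.5% of all genes) and 0 higher, and that median turns to 0.09 with library size alone. Acad9, a complex I factor that is related to the enzymes of fatty acid oxidation, changed most of them, from 59.1, 75.7 and 77.0 CPM to 31.7, 25.7 and 26.3 CPM (-1.34, SE 0.14, edgeR adjusted p = 3.9e-05).

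**Figure D3:**
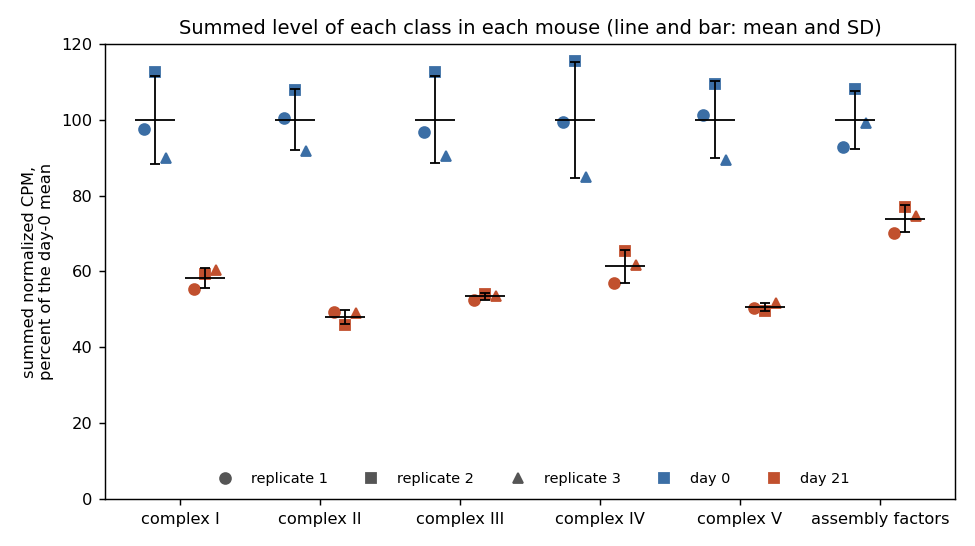
Summed normalized CPM of each class in each mouse, as a percentage of the day-0 mean of that class, with the mean and SD of 3 mice per group. Day-21 mice lie at 46.0% to 49.3% for complex II, 49.7% to 51.7% for complex V, 52.5% to 54.1% for complex III, 55.2% to 60.4% for complex I, 56.9% to 65.4% for complex IV and 70.2% to 77.0% for assembly factors.

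Summed over the genes of a class, the complexes did not fall to the same level, as the plot of summed CPM by mouse shows. These sums are led by a few abundant genes, such as Atp5b and Atp5a1 in complex V. Ratios within a library are free of scaling. The sum of complex II relative to complex I was 0.426 to 0.459 on day 0 and 0.346 to 0.397 on day 21, and that of complex V relative to complex I was 2.07 to 2.21 and then 1.79 to 1.94. Complex III relative to complex I was 0.495 to 0.502 and then 0.442 to 0.473. In these 3 ratios the groups did not overlap. For complex IV relative to complex I they did, at 0.682 to 0.739 and 0.737 to 0.796. Assembly factors relative to all subunits rose from 0.0215 to 0.0256 on day 0 to 0.0308 to 0.0327 on day 21, without overlap. No test was made of these ratios.

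Among the associated genes, the related subunits Ndufa4 and Ndufa4l2 moved in opposite directions. Ndufa4, first assigned to complex I and now known as a complex IV subunit, was at 346, 409 and 332 CPM and then at 184, 192 and 194 CPM (-0.93, SE 0.11, edgeR adjusted p = 0.00011). Ndufa4l2 (chr10:127514967-127517154, GRCm38, 4 exons), its paralog known to be induced by low oxygen and to be present in pericytes, was at 2.11, 4.45 and 2.99 CPM and then at 7.14, 5.61 and 8.94 CPM. This is a 2.25-fold rise (log2 1.17, SE 0.31, edgeR adjusted p = 0.011, 95% confidence interval 0.48 to 1.86), with the groups apart, and the call is lost without day-21 replicate 3, where the estimate is 0.99. Of 11 pericyte and smooth muscle markers, 4 were higher and 2 lower, and none was at 0 in all mice. Their sums were 352 to 378 CPM and then 406 to 530.4 CPM. Of 12 genes known to be induced by low oxygen, 1 (Slc2a1, 0.59) was higher and 6 were lower, with Car9 changing most (-1.83). Over all genes tested, 19.6% were called higher and 15.5% lower. The part of either list in the rise of Ndufa4l2 was not tested. Cox7a2l, which helps to join complexes III and IV, was at 146, 147 and 113 CPM and then at 149, 149 and 158 CPM (0.17, SE 0.12, edgeR adjusted p = 0.30). Its day-21 mice lay above its day-0 mice by a margin that the test did not call. Atp5s, a factor of complex V coupling, had a change of -0.25 (SE 0.19, edgeR adjusted p = 0.30).

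The ratio of an isoform to its partner was compared in 6 pairs with a two-sided exact permutation test on log2 ratios of CPM plus 0.5, where 3 mice against 3 cannot give a p below 0.10. Ndufa4l2 relative to Ndufa4 was -7.05, -6.37 and -6.57 on day 0 and -4.59, -4.98 and -4.37 on day 21, a mean difference of 2.02 (exact p = 0.10, adjusted 0.20 over the 6 pairs). Cox6b2 relative to Cox6b1 was -6.18, -5.93 and -5.57 and then -4.65, -4.87 and -4.73, a difference of 1.14 (exact p = 0.10, adjusted 0.20). Its partner Cox6b1, at 217, 281 and 185 CPM and then 147, 155 and 140.0 CPM, had a log2 fold change of -0.63 (SE 0.15). Cox4i2 relative to Cox4i1 differed by 0.87 (exact p = 0.10, adjusted 0.20), but Cox4i2 itself was at 0.488 ± 0.334 CPM and then 0.517 ± 0.173 CPM (SD, n = 3), near the size of the pseudocount, so the ratio mainly follows the fall of Cox4i1. Cox6a2 relative to Cox6a1 (-0.36, exact p = 0.30, adjusted 0.45), Cox7a1 relative to Cox7a2 (0.03, exact p = 1, adjusted 1) and Cox8b relative to Cox8a (0.39, exact p = 0.40, adjusted 0.48) overlapped between the groups. The partner Cox6a1 fell from 596 ± 87.5 to 373 ± 22.2 CPM (SD, n = 3) and Cox8a from 569 ± 82.5 to 342 ± 21.6 CPM.

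**Figure D4:**
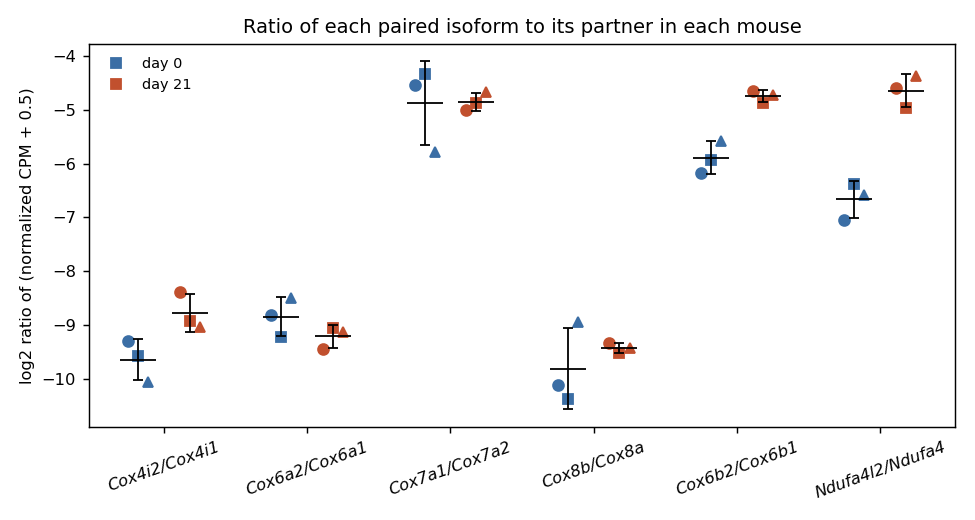
The log2 ratio of (normalized CPM + 0.5) of each restricted isoform or paralog to its partner in each mouse, with the mean and SD of 3 mice per group. The groups are apart for Ndufa4l2 to Ndufa4, Cox6b2 to Cox6b1 and Cox4i2 to Cox4i1 (where Cox4i2 is near the pseudocount in both groups), and they overlap for the other pairs.

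Subunits that fell further tended to have longer transcripts and higher levels on day 0. Among the 76 tested subunits the log2 fold change had a Spearman correlation of -0.39 with the length of the longest coding transcript. The correlation was -0.32 with the exon length of the gene. It was -0.36 with TPM on day 0, which shares its day-0 counts with the fold change. These values describe genes that share the same 6 libraries. Over all 16592 genes the values were 0.0094 with the longest transcript and 0.00926 with exon length. Of 32 subunits with a coding transcript of at least 1000 bases 27 were called lower (median -0.84), and of 44 shorter ones 25 were (median -0.66). Over all genes tested the shares ran the other way, with 15.0% lower among the longer (median 0.04) and 19.4% among the shorter (median -0.08). When a smooth trend with exon length was removed over all genes, 51 members were called lower, of which 48 were among the 55.

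The partners of these proteins fell as well. All 12 tested subunits encoded in mitochondrial DNA were called lower, also with library size alone, with a median of -1.64. The most abundant, mt-Co1 of complex IV, was at 47345, 52656 and 44752 CPM and then at 18571, 17371 and 15141 CPM (-1.50, SE 0.16, edgeR adjusted p = 4.8e-05). Relative to the nuclear subunits of the same complex, the mitochondrially encoded transcripts summed to 7.20 to 10.6 and then 4.43 to 5.51 in complex I. The values were 6.18 to 8.30 and then 3.79 to 4.62 in complex III, and 13.4 to 15.4 and then 7.19 to 9.55 in complex IV. In complex V they were 0.0037 to 0.0077 and then 0.0018 to 0.0031. In each the groups did not overlap. The sum of complex IV was almost all mt-Co1, since on day 0 mt-Co2 was at 69.8, 126 and 154 CPM and mt-Co3 at 70.6, 256 and 105 CPM. The sum of complex V rests on scarce counts too, with mt-Atp6 at 37.0, 54.2 and 69.4 CPM on day 0. The untested mt-Atp8 was at 1.00, 1.73 and 0.721 CPM, and mt-Nd3 at 3.21, 2.64 and 2.58 CPM. Why these genes were counted so rarely was not tested, so the complex V ratio and their part in the median of -1.64 are uncertain. The largest fitted fall was that of mt-Nd4l (-3.97, SE 0.90), which had 1.90 to 28.2 CPM on day 0.

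Around the complexes, the electron carriers Cyc1 and Cycs, cytochromes of complex III and of the intermembrane space, fell by 0.97 and 0.95 (SE 0.12 for each), and Cyct was at 0. Of 6 tested genes that bring electrons to ubiquinone by other routes, 5 were lower (15.5% of all genes), with a median of -1.18. Each of the 5 was also called with library size alone. Prodh, which oxidizes proline, led them, from 242, 291 and 266 CPM to 96.4, 80.1 and 96.0 CPM (-1.55, SE 0.12, edgeR adjusted p = 7.7e-06). Of 13 genes of ubiquinone synthesis, 6 were lower and 0 higher (15.5% and 19.6% of all genes), with a median of -0.57. Pdss1, which makes the side chain of ubiquinone, changed most of them, from 20.2, 29.5 and 22.6 CPM to 10.04, 8.11 and 9.31 CPM (-1.40, SE 0.18, edgeR adjusted p = 0.00014).

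**Figure D5:**
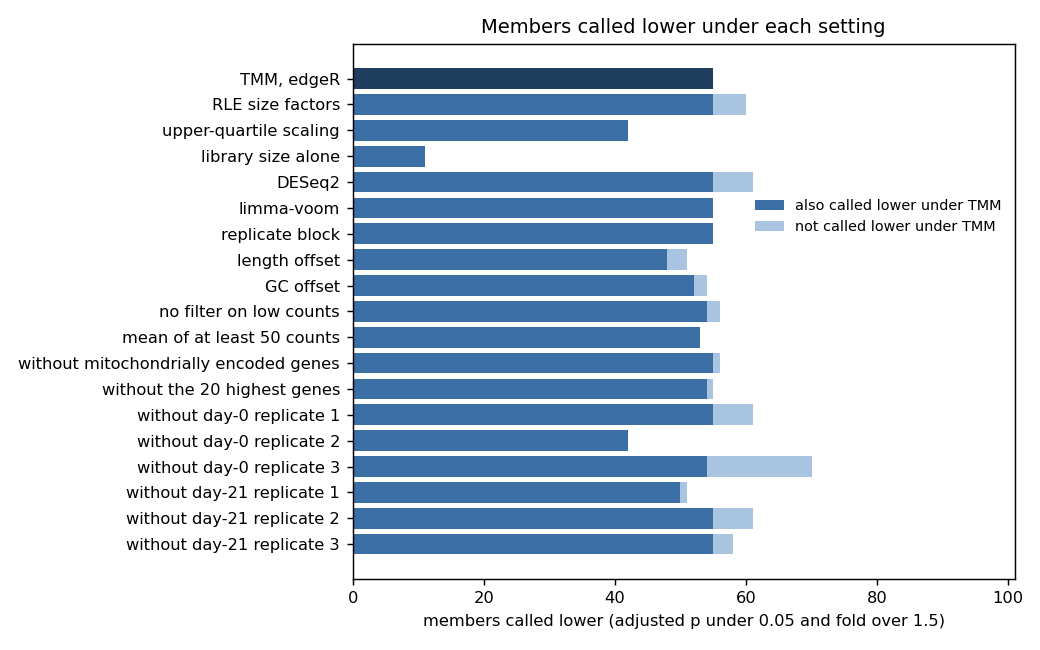
Number of the 101 tested members called lower (horizontal axis) under each setting, split into those that are also called lower under TMM and those that are not. Counts lie between 42 and 70 for all settings but library size alone, where 11 are called.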

How the data were processed

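Kidney mRNA of 3 day-0 and 3 day-21 mice was sequenced by the authors from TruSeq libraries as paired-end reads. The deposited values are raw counts per gene and mouse, without normalization. The submitters' processing notes name TopHat and the build mm10, while the counting program and its strand setting are not given in the sources used here, so reads of a gene and an antisense partner cannot be told apart. All 55450 identifiers matched GENCODE M21 on GRCm38, and each mouse was assigned by its own label. Nothing says whether mice shared a cage or a batch.

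Genes were filtered with filterByExpr (minimum count 10, minimum total 15), scaled by TMM and compared with the quasi-likelihood test of edgeR 4.0.16 in R 4.3.3, with Benjamini-Hochberg adjustment. Calls needed an adjusted p below 0.05 with a fold above 1.5, the thresholds of the study. TPM used the exon length of the gene, with all its annotated exons merged. The alternatives used DESeq2 1.42.0, limma 3.58.1, other scalings and filters, length and GC offsets, and each mouse left out. The steps were tested on simulated data. Figures and sequence searches were made in Python 3.11.15. Sharing of sequence was measured as 50-base words found in another annotated gene. Of the 107 members, 21 shared at least 20% of their words, 36 had exon bases shared with a gene on the other strand and 8 with a gene on the same strand. At these depths 3 counts, the floor of a visible level, covers counting error only. No 2 libraries of a group agreed within sampling noise (chi-square per gene of 7.27 to 24.2).

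Members, roles, gene lists and motifs were chosen with earlier results of these data known. Named are core subunits of complex I, the subunits of complex II, Uqcrfs1 and F1, the isoform pairs, the 2 lowest and 2 highest changes of each class, members called higher, untested members, associated genes, and the gene of each list with the largest called change. Atp5if1 carries another symbol in M21 and is not a member. Other genes were named after their values were seen. A gene that this rule names is not reported here.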

Additional observations from a re-analysis of the deposited data

How the results depend on the processing

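With library size alone, 11 members were called lower and 3 higher (8.06% and 36.1% of all genes), with a median of -0.26. The counts called lower were 3, 2, 3, 0 and 2 in complexes I to V and 1 among assembly factors. These are counts out of 36, 4, 8, 12, 16 and 21 tested genes, so those of complexes I and IV and of assembly factors lie near or below the share of all genes. In the same setting Ndufa7 and Atp5g2 turned to 0.11 and 0.15. With upper-quartile scaling (13.1% of all genes called lower), complex IV had 5 and assembly factors 1, and assembly factors also had 1 with a mean of at least 50 counts. At any fold complex I had 34 and assembly factors 6. With 0.01 for the adjusted p and 2 for the fold (7.56% of all genes called lower, 11.6% higher), 10 members were lower and 0 higher, with 3, 1, 3, 0 and 2 in complexes I to V and 1 assembly factor. RLE scaling, DESeq2 and limma-voom called 60, 61 and 55 lower (16.6%, 16.5% and 15.3% of all genes), each including all 55, and 42 of the 55 were called by these and upper-quartile scaling together. The median over members with under 5% shared words, an alternative added after seeing the data, was -0.66 (60 genes).

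Leaving out each mouse in turn gave 42 (without day-0 replicate 2, where 14.4% of all genes were lower) to 70 (without day-0 replicate 3, 15.3%) members lower, 0 (without day-21 replicate 3) to 1 higher and a median of -0.76 to -0.55. The counts were 16 to 31, 4 to 4, 6 to 7, 5 to 11 and 8 to 14 in complexes I to V and 2 to 4 for assembly factors, and 40 of the 55 were called in every such fit. The isoform ratio Cox7a1/Cox7a2 ran from -0.41 (without day-0 replicate 3) to 0.31, with -0.06 without day-21 replicate 3, -0.0187 with library size alone and -0.0396 with a pseudocount of 0.1, at which the isoform ratio Cox8b/Cox8a was -0.15. The causes were not tested.

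A replicate block left 55 members lower and 1 higher with a median of -0.64, and the same counts in each complex, and all 55 were shared. Replicate numbers did not pair the mice, since same-numbered mice had correlations of -0.02, 0.17 and 0.09 in their deviations, and not every mouse correlated best with its own number. With 3 mice per group, single members near a fold of 1.5 could not be placed firmly on either side, and members with few counts, such as Cox4i2 and Cox16, were not resolved at this depth.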

Other observations

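Of 15 tested genes known to regulate mitochondrial biogenesis, 6 were called lower and 0 higher (15.5% and 19.6% of all genes). Their median log2 fold change was -0.40, and it was -0.01 with library size alone. Esrrb, a nuclear receptor of the ERR family, changed most, from 63.3, 85.4 and 67.8 CPM to 16.6, 13.8 and 19.4 CPM (-2.12, SE 0.16, edgeR adjusted p = 6.4e-06), and Ppara, a receptor that drives fatty acid oxidation, fell by 1.97 (SE 0.21). The other ERR genes were called lower too, Esrra at -0.73 (SE 0.13) and Esrrg at -0.71 (SE 0.12). Neither was called with library size alone (-0.34 and -0.33). The factors of the other promoter letters searched moved less, with -0.18 for Nrf1, -0.17 for Gabpa and -0.12 for Yy1. None of them was called, and each was above 0 with library size alone (0.21, 0.22 and 0.27). Ppargc1a, a coactivator of these factors, was at 58.7, 79.5 and 100.4 CPM and then at 55.4, 58.8 and 54.1 CPM (-0.50, SE 0.17, edgeR adjusted p = 0.034), where the groups overlap slightly and the fold is under 1.5.

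Of 20 genes of mitochondrial import and structure, 8 were lower and 0 higher (15.5% and 19.6% of all genes). Their median was -0.52, and it was -0.13 with library size alone. Hspd1, the matrix chaperonin, changed most (-1.25, SE 0.14, edgeR adjusted p = 5.9e-05). Of 4 genes for exchange of ATP, phosphate or protons, 2 were lower and 1 was higher (15.5% and 19.6% of all genes). The gene called higher was Ucp2, an uncoupling protein of the inner membrane, from 105, 139 and 165 CPM to 227, 265 and 246 CPM (0.85, SE 0.16, edgeR adjusted p = 0.0016).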
